A study of Mus musculus with 2 samples.

Results

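The ectodysplasin genes are the ligand gene Eda, its receptor genes Edar and Eda2r, and Edaradd, which encodes the adaptor of Edar. They were chosen by name, with no threshold on their values, and make up 4 of the 43346 mouse genes in the deposited gene tables and 18 of the 103639 mouse transcripts in the deposited transcript tables. All 4 were found by their Ensembl identifiers. The tissue was embryonic facial prominence, which forms the face and jaws, from healthy B6NCrl mouse embryos of mixed sex at embryonic day 15.5. The assay, which the labels name total RNA-seq, gave 2 libraries of this 1 group. There was no treatment, mutant or second stage, so no comparison between conditions exists. Replicate 1 pooled 78 embryos and replicate 2 pooled 62 embryos, each library started from 10 ng of RNA, and both carried the same donor label. A spread between the 2 libraries is therefore not a spread between single animals. With 1 library per pool, differences between pools and differences in library preparation cannot be told apart.

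Ectodysplasin is a ligand of the tumour necrosis factor (TNF) family that is made as a membrane protein and released by furin-type proteases. It is required for normal hair, teeth and exocrine glands, and mutations in Eda, Edar or Edaradd give much the same defects of these organs in mice and ectodermal dysplasia in people. Splicing yields a longer ligand, EDA-A1, which binds Edar, and a shorter one, EDA-A2, which lacks 2 amino acids and binds Eda2r. Edar marks the epithelial thickenings, called placodes, from which hairs and teeth grow. It binds Edaradd through a death domain and so reaches TRAF proteins, the kinase TAK1, the IKK complex and NF-kB, whereas Eda2r binds TRAF proteins without Edaradd.

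Eda lies on chromosome X:99975606-100400762 on the plus strand of GRCm38 (ENSMUSG00000059327.5 in the deposited tables), a span of 425157 bases of which the first intron takes 333817. The gene has 12 deposited transcripts, 9 of them with a coding sequence in GENCODE M21. The A1 and A2 forms are set by 1 variable exon inside the coding sequence, chrX:100395019-100395149, which is followed by the last exon. The sequences below are the forms of that exon in 4 coding transcripts, read 5′ to 3′ from the GENCODE M21 transcripts, and they are shown because the split of Eda between receptors rests on them. Capitals mark the bases that the A2 form Eda-205 does not have.
Eda-206, 131 bases: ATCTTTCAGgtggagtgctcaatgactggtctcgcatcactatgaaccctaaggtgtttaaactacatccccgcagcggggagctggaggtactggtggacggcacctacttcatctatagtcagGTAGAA
Eda-205, 116 bases: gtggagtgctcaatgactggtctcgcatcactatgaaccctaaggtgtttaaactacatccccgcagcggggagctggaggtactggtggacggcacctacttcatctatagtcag
Eda-202, 125 bases: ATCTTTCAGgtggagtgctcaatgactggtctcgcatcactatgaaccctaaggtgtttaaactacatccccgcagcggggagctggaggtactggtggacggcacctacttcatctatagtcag
Eda-207, 89 bases: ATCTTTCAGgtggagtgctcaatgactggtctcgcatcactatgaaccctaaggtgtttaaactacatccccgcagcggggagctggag

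The 6 capitals at the end of Eda-206 are the bases that separate A1 from A2. They lie at chrX:100395144-100395149 and fill codons 307 and 308 of the 391 codons of Eda-206, so leaving them out removes 2 codons in frame. The 9 capitals at the start, chrX:100395019-100395027, are a second difference, worth 3 codons, which Eda-205 also lacks and which leaves it with 386 codons. In Eda-207 the exon stops 42 bases early and the frame keeps 377 codons. In Eda-202 the exon ends as in the A2 form but runs into an extra exon of 139 bases, and the frame has 351 codons. No annotated Eda transcript joined the 125-base form directly to the last exon, so a message that lacks the 6 bases alone had no model of its own to be counted on.

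**Figure D1:**
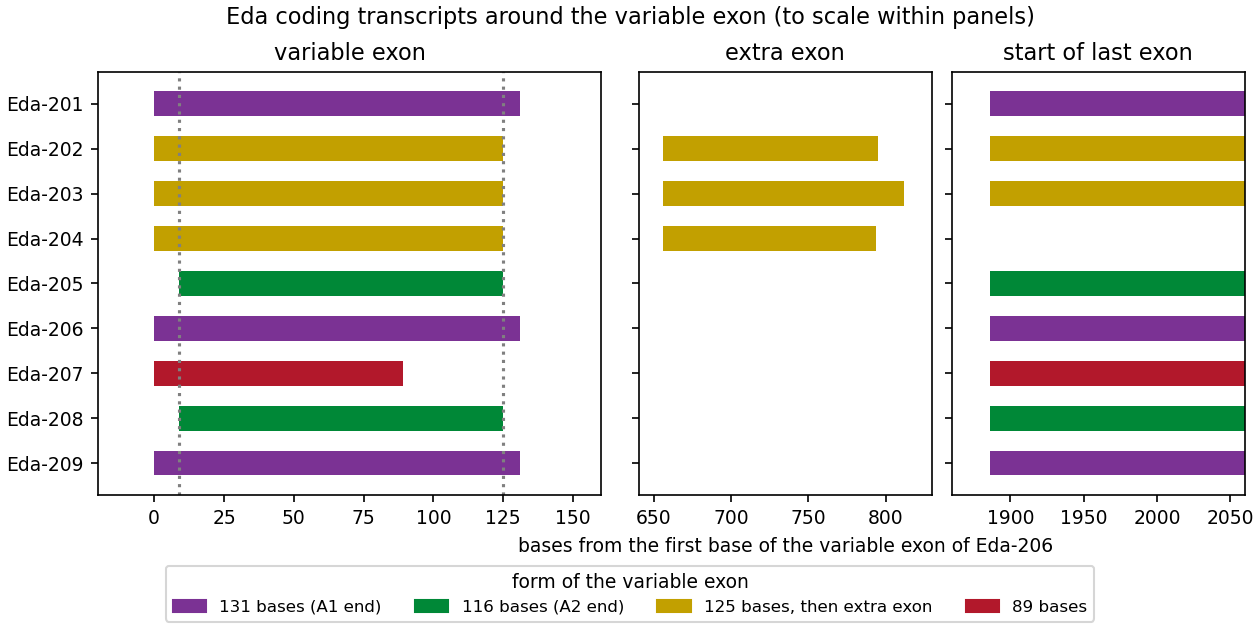
Exons of the 9 coding Eda transcripts from the variable exon to the start of the last exon. The horizontal axis gives bases from the first base of the variable exon of Eda-206, each row is a transcript, colour marks the form of the variable exon, and dotted lines mark the start and end of the 116-base core; the middle panel shows the extra exon, used by Eda-202, Eda-203 and Eda-204.

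All 4 genes were detected in both libraries at 1 TPM or more, a deposited unit of transcript abundance that accounts for gene length and library size. Edaradd and Eda stood highest, Edar below them and Eda2r lowest, and the order of the 4 was the same in both replicates. None lay above more than 17.9% of the coding genes detected in both libraries, and each rests on between 83 and 942 counts per library. In bulk tissue, fewer cells of a type and less RNA per cell cannot be told apart.

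Eda had 421 counts in replicate 1, with an exact Poisson 95% interval of 382 to 463, and 437 counts in replicate 2, with an interval of 397 to 480.0. Its level was 3.60 TPM in replicate 1 and 3.52 TPM in replicate 2, a mean of 3.56 ± 0.0566 TPM (SD, n = 2). The libraries lay close together, and this level was above that of 13.8% of the 14052 coding genes detected in both libraries.

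Edar, the receptor of the A1 form (ENSMUSG00000003227.4, chromosome 10:58600789-58675654, minus strand), had 199 counts in replicate 1, with an interval of 172 to 229, and 213 in replicate 2, with an interval of 185 to 244. This gave 2.28 TPM in replicate 1 and 2.34 TPM in replicate 2, a mean of 2.31 ± 0.0424 TPM (SD, n = 2), above 7.63% of detected coding genes. Its 1 transcript, with 448 codons, took all of these counts.

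Eda2r, the receptor of the A2 form (ENSMUSG00000034457.6, chromosome X:97333840-97377216, minus strand), had 100 counts in replicate 1, with an interval of 81.4 to 122, and 83 in replicate 2, with an interval of 66.1 to 103. Its level was 1.15 TPM in replicate 1 and 1.03 TPM in replicate 2, a mean of 1.09 ± 0.0849 TPM (SD, n = 2). It was above 0.171% of detected coding genes and lay close to the 1 TPM at which a gene was called detected.

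Edaradd, the death domain adaptor (ENSMUSG00000095105.1, chromosome 13:12472632-12520438, minus strand), had the most counts, 942 in replicate 1 with an interval of 883 to 1004 and 871 in replicate 2 with an interval of 814 to 931. Its level was 4.78 TPM in replicate 1 and 4.23 TPM in replicate 2, a mean of 4.51 ± 0.389 TPM (SD, n = 2), above 17.9% of detected coding genes. It had the widest spread of the 4 between replicates in TPM. The authors counted it on a single transcript of 8103 bases, whereas the GENCODE M21 model of the same transcript has 6668, so its TPM carries a length that a later annotation shortened.

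For each of the 4 genes the authors' estimate assigned whole counts with a posterior SD of 0.00, which means that in that estimate no read of theirs was shared with another gene. Mir676, Gm14832, Gm14829 and Gm14828 lie within the span of Eda, and whether the counting used strand is not given in the sources used here. Intervals cover counting error only and treat each count as an independent molecule. Reads copied by PCR are not independent, so these intervals can be too narrow.

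**Figure D2:**
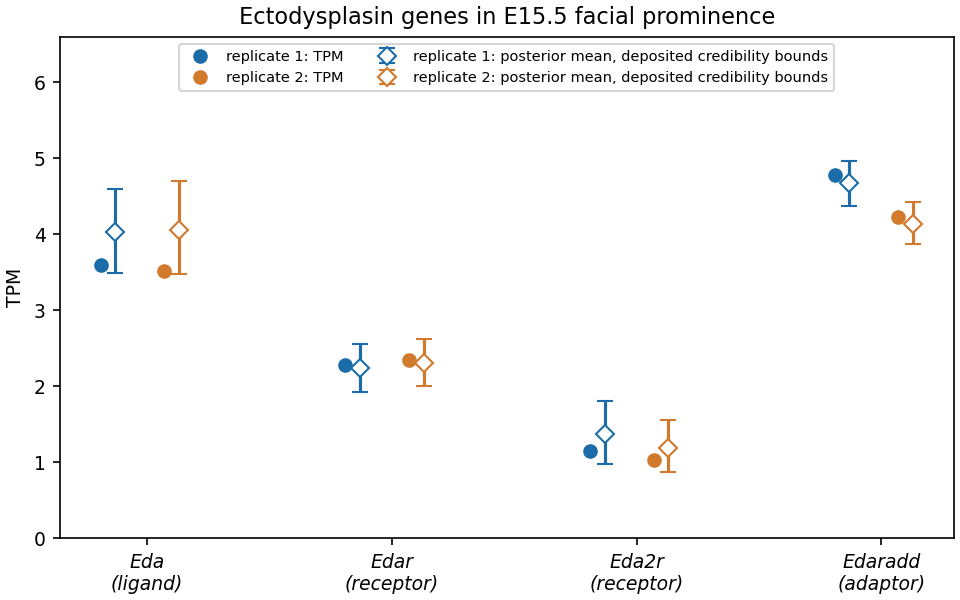
Level of the 4 genes in both libraries. The vertical axis is TPM, filled circles are the deposited TPM, diamonds the deposited posterior mean TPM and bars its deposited credibility bounds, whose level the tables do not print; Edaradd and Eda lie highest, with bounds that overlap, and Eda2r lowest.

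Between the replicates 0 of the 4 genes differed by more than 1.5-fold in either direction, where 9.08% of the 18318 genes with at least 10 counts in each library did, so 0 of 4 is no result particular to these genes. After TMM scaling, the log2 ratio of replicate 1 over replicate 2 was 0.01 for Eda, a ratio of 1.00 with an exact 95% interval of 0.876 to 1.15. It was -0.04 for Edar, a ratio of 0.974 with an interval of 0.798 to 1.19. The ligand and its A1 receptor thus both gave intervals that include an equal level in the replicates.

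The log2 ratio of Edaradd was 0.17, a ratio of 1.13 whose counting interval, 1.03 to 1.24, lay just above 1. The libraries differed from each other beyond counting noise across all genes, with a common biological coefficient of variation of 12.7%. An interval that covers counting error alone is therefore too narrow for a difference between the libraries. The log2 ratio of Eda2r was 0.32, a ratio of 1.25 with an interval of 0.929 to 1.70. These ratios are on counts not divided by length. The deposited effective length of Eda2r was 3522 bases in replicate 1 and 3142 in replicate 2. Its TPM, 1.15 in replicate 1 and 1.03 in replicate 2, thus differed by less than its counts. Muscle marker genes were also higher in replicate 1, with all 7 detected and a median log2 ratio of 0.37. Their summed level was 2774 TPM in replicate 1 and 2116 TPM in replicate 2. The 3 blood markers had a median log2 ratio of 0.42 and a summed level of 8578 TPM in replicate 1 and 6493 TPM in replicate 2. Their part in the ratios of Eda2r and Edaradd was not tested.

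Set side by side per unit length, Edaradd stood at 1.33 times the TPM of Eda in replicate 1, with a counting interval of 1.18 to 1.49, and 1.20 times in replicate 2, with an interval of 1.07 to 1.35. The mean ratio was 1.26 ± 0.0891 (SD, n = 2). On the authors' posterior mean TPM, which averages over the possible splits of reads between transcripts, the ratio was 1.16 in replicate 1 and 1.02 in replicate 2, and the credibility bounds of the pair overlapped in both libraries. Posterior means put Eda at 4.03 TPM in replicate 1 and 4.05 TPM in replicate 2, above its deposited 3.60 and 3.52 TPM. Part of that posterior level lay on Eda transcripts with almost no reads. The order of Edaradd and Eda is therefore not settled by these libraries.

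Eda, the ligand, exceeded its receptor Edar 1.58-fold in replicate 1, with an interval of 1.33 to 1.88, and 1.5-fold in replicate 2, with an interval of 1.27 to 1.78, a mean of 1.54 ± 0.0528 (SD, n = 2). Their credibility bounds did not overlap in either library, with 3.49 to 4.60 TPM for Eda against 1.93 to 2.55 TPM for Edar in replicate 1 and 3.48 to 4.70 TPM against 2.00 to 2.62 TPM in replicate 2. Across the whole tissue all Eda forms together were thus more abundant than Edar on this scale. The A1 forms, which encode the ligand of Edar, did not exceed it in both libraries. They held 2.18 TPM in replicate 1 and 2.51 TPM in replicate 2, against 2.28 and 2.34 TPM for Edar. On posterior means they held 1.54 and 1.90 TPM, against 2.24 and 2.30 TPM for Edar.

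Of the receptors, Edar exceeded Eda2r 1.98-fold in replicate 1, with an interval of 1.55 to 2.55, and 2.27-fold in replicate 2, with an interval of 1.75 to 2.96, a mean of 2.13 ± 0.205 (SD, n = 2). The credibility bounds of Eda2r, 0.976 to 1.80 TPM in replicate 1 and 0.875 to 1.56 TPM in replicate 2, stayed below those of Edar in both. Eda exceeded Eda2r by 3.27 ± 0.203 times (SD, n = 2). No ratio here compares a ligand and a receptor cell by cell.

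Eda was counted almost wholly on 2 of its 12 transcripts, Eda-206 and Eda-205, while 7 transcripts were listed at 0 in both libraries. Eda-206, the full-length A1 form, had 261.26 expected counts in replicate 1 and 313.68 in replicate 2, which were 60.64% and 71.43% of Eda. Eda-205, the A2 form, had 141.62 expected counts in replicate 1 and 97.89 in replicate 2, which were 32.96% and 22.35%. In both libraries the A1 form was the larger, and its lowest share, 60.64%, lay above the highest share of the A2 form.

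Summed over transcripts with the same exon end, the 3 A1 forms took 66.0 ± 7.63% of Eda (SD, n = 2) and the 2 A2 forms 27.7 ± 7.50% (SD, n = 2). Over coding transcripts only, the A1 share averaged 67.4% and the A2 share 28.4%. The form with the inner exon end, Eda-207, took 2.97% in replicate 1 and 0.420% in replicate 2. The forms with the extra exon were at 0 in replicate 1 and at 4.91% in replicate 2, all of it on Eda-202. Noncoding transcripts took 3.43% in replicate 1 and 0.880% in replicate 2, all on Eda-211, which keeps the start of the second intron.

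How firmly these shares hold is limited by how few bases tell the transcripts apart. Eda-206 and Eda-205 each have no window of 100 bases, the read or fragment length that the deposited effective lengths imply, that is absent from all other Eda transcripts. The A1 forms together have 103 such windows that no other form holds, and the A2 forms 192. At an even spread of reads over the gene, those windows would hold about 5.54 reads in replicate 1 and 6.65 in replicate 2 for the A1 forms, and about 5.62 and 3.89 for the A2 forms.

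The authors' posterior shares, which weigh all splits that the reads allow, were flatter. They gave the A1 forms 38.1% in replicate 1 and 47.1% in replicate 2, and the A2 forms 30.5% in replicate 1 and 19.3% in replicate 2. The A1 forms were still the larger in both libraries, but by less. The noncoding forms rose to 10.3% in replicate 1 and 9.08% in replicate 2. Among them Eda-210 held 4.59% and 5.34% on posterior mean counts of only 0.4 and 0.7. The posterior shares of short transcripts therefore do not follow the reads alone. The credibility bounds of Eda-206, 0.313 to 2.28 TPM in replicate 1 and 0.363 to 2.57 TPM in replicate 2, overlapped those of Eda-205, 0.0252 to 1.87 TPM in replicate 1 and 0.000118 to 1.04 TPM in replicate 2. No order of A1 over A2 is therefore set by these bounds, and a listed 0 for a transcript is the end point of an estimate and not a count of absent reads.

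**Figure D3:**
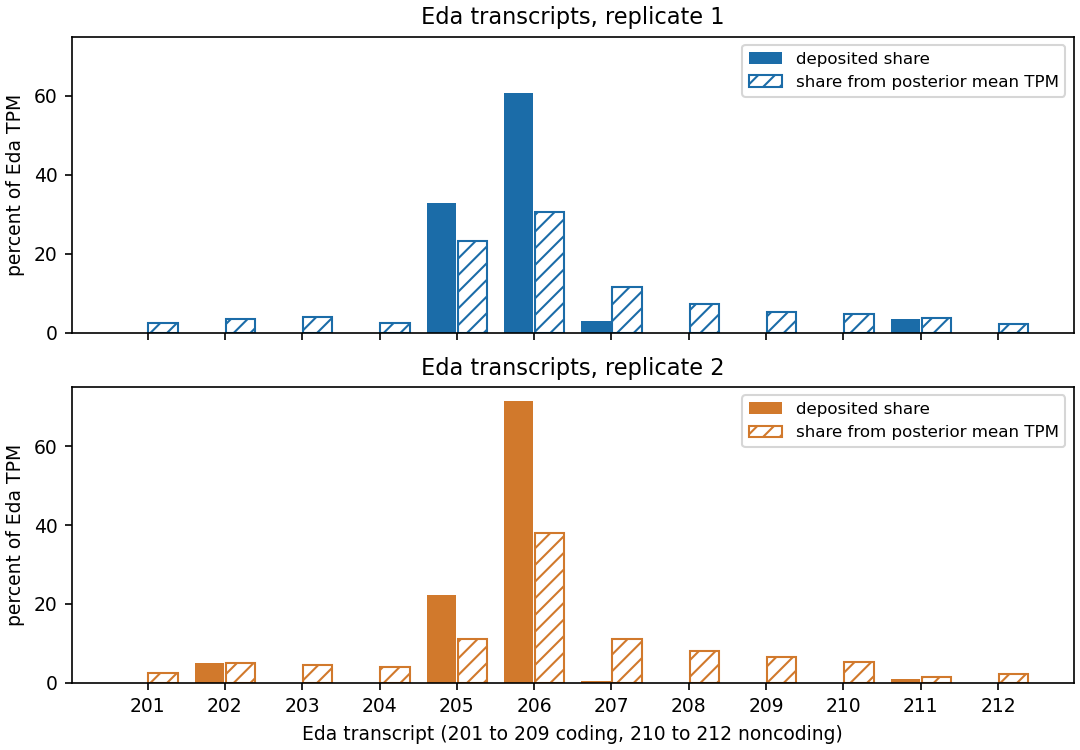
Share of Eda taken by each of its 12 transcripts in replicate 1 (upper panel) and replicate 2 (lower panel). The vertical axis is percent of the TPM of Eda, filled bars are the deposited share and hatched bars the share from the deposited posterior mean TPM; Eda-206 is the tallest bar in each panel, and transcripts listed at 0 hold a small posterior share.

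A small exon of 24 bases, chrX:100381455-100381478, is the other variable piece of the coding sequence, and it is shown because nearly all deposited counts fell on forms that hold it. It is in frame and adds 8 codons.
24-base exon of Eda-206: gtcctgttaaaaacaagaaaaagg
Forms with this exon took 96.6% of Eda in replicate 1 and 99.1% in replicate 2, and the 3 coding forms without it were at 0 in both. On the posterior shares, forms with it took 74.7% in replicate 1 and 73.8% in replicate 2, against 15.0% and 17.1% for forms without it. The direction was the same on both estimates.

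Eda2r was split between 4 transcripts, of which 2 are annotated as coding and 2 as keeping an intron. The coding transcript Eda2r-201, with 297 codons, had 78.85 expected counts in replicate 1 and 55.37 in replicate 2, or 59.68% and 45.04% of the gene's TPM. Eda2r-203, annotated as a retained intron with no coding sequence, had 19.98 expected counts in replicate 1 and 23.58 in replicate 2, or 34.25% and 43.45%. Eda2r-202 was at 0 in replicate 1 and 11.51% in replicate 2, and Eda2r-204 at 6.07% in replicate 1 and 0 in replicate 2.

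Retained-intron transcripts thus made up 41.9 ± 2.21% of Eda2r (SD, n = 2). The kept stretch of Eda2r-203, chrX:97337791-97338802, is 1012 bases long and begins 23 exonic bases after the stop codon of Eda2r-201. The whole reading frame of Eda2r-201, 894 bases with its stop codon, was found unbroken in Eda2r-203 and in Eda2r-202, and was not found in Eda2r-204. The 3 transcripts that hold the frame summed to 1.08 TPM in replicate 1 and 1.03 TPM in replicate 2. By deposited TPM nearly all of Eda2r thus lay on messages with the full frame, although the annotation calls only part of it coding. On posterior shares Eda2r-204, which lacks the frame, held 18.60% in replicate 1 and 11.97% in replicate 2. Its credibility bounds reached 0.638 TPM and 0.412 TPM, so the share without the frame is not settled. Against the 3 transcripts with the frame, Edar stood 2.11-fold higher in replicate 1 and 2.27-fold higher in replicate 2. Against the annotated coding pair alone it stood 3.30-fold and 4.03-fold higher. Total RNA can hold unspliced message, and unspliced and retained introns cannot be told apart here. The labels name total RNA-seq as the assay but also link the manual of a SMARTer Ultra Low kit, which primes on poly(A) tails, so how much unspliced message entered these libraries, and with it what the retained-intron share stands for, is not known.

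Among 18 TNF ligand genes, Eda was number 3 by mean TPM, and it was 1 of the 5 that reached 1 TPM in both libraries. Tnfsf12, which encodes the ligand TWEAK, was highest at 9.98 ± 0.622 TPM (SD, n = 2). Tnfsf9, the 4-1BB ligand gene, stood directly above Eda at 4.79 ± 0.219 TPM, and Tnfsf11, the RANK ligand gene, directly below at 2.08 ± 0.177 TPM. The ranges of these neighbours over the 2 replicates did not overlap that of Eda, but such ranges leave out counting error. The credibility bounds of Eda reached 4.60 TPM in replicate 1 and 4.70 TPM in replicate 2. Tnfsf9 had 4.95 and 4.64 TPM from 138 and 135 counts, so its order with Eda is not settled. The median of the 18 was 0.168 TPM, and Cd40lg and Fasl had no counts, which allows up to 0.106 TPM in replicate 1 and 0.101 TPM in replicate 2 for Cd40lg and up to 0.114 TPM and 0.109 TPM for Fasl.

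The receptors ranked lower in their own family, whose 28 genes had a median of 2.96 TPM, 21 of them at 1 TPM or more in both libraries. Tnfrsf1a, the broadly expressed TNF receptor gene, led with 72.3 ± 3.66 TPM, followed by Tnfrsf19, also called Troy, with 62.6 ± 0.785 TPM and the neurotrophin receptor gene Ngfr with 38.5 ± 0.170 TPM. Edar was number 17, between Cd27 at 2.43 ± 0.212 TPM and Tnfrsf13b at 2.10 ± 0.587 TPM. Eda2r was number 22, between Tnfrsf14 at 1.21 ± 0.552 TPM and Tnfrsf26 at 1.02 ± 0.134 TPM. In both cases the range of the receptor overlapped those of its neighbours, so the order at these places is not set. Below them, Tnfrsf4, Tnfrsf13c, Tnfrsf8 and Tnfrsf17 were under 1 TPM in both libraries, Tnfrsf17 with no counts, which allows up to 0.170 TPM in replicate 1 and 0.163 TPM in replicate 2.

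**Figure D4:**
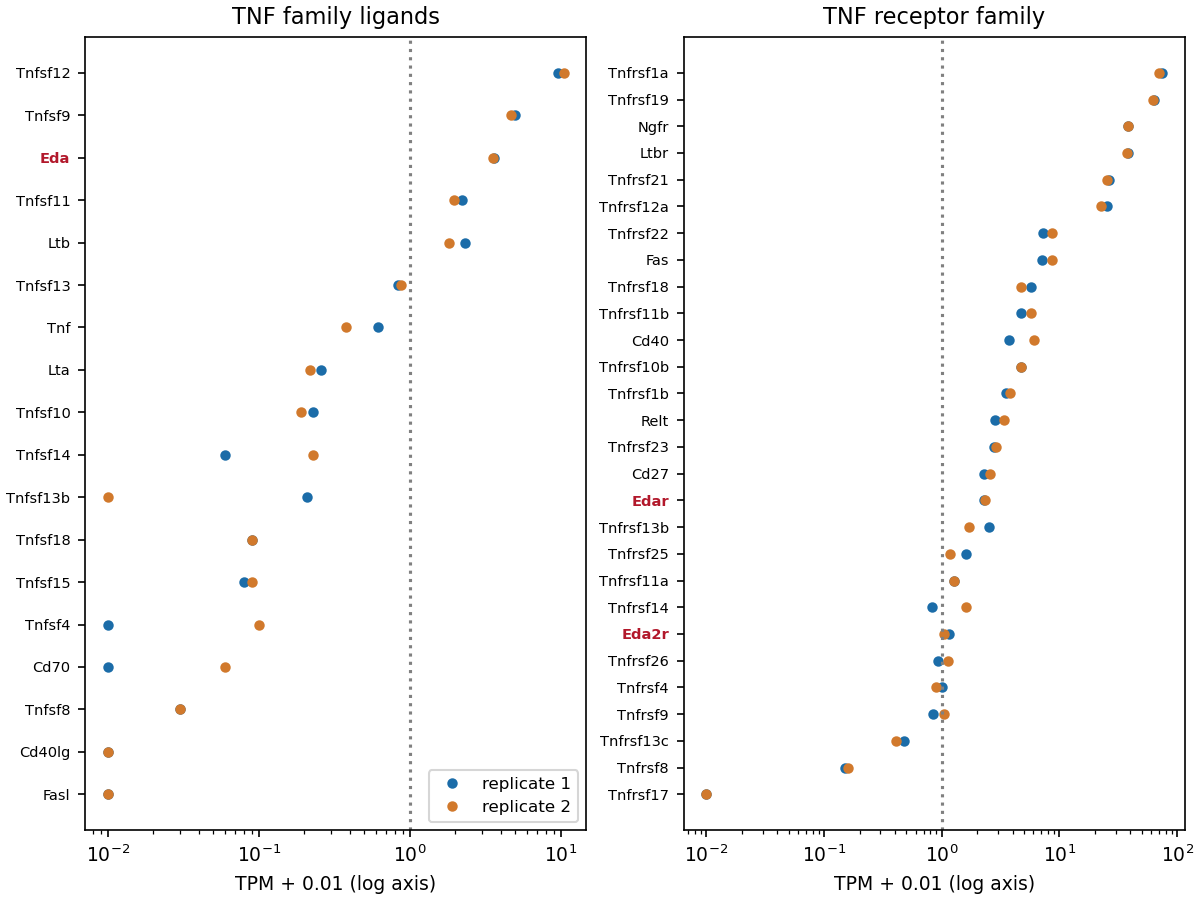
TNF ligand genes (left) and TNF receptor genes (right) ordered by mean TPM. The horizontal axes show TPM + 0.01 on a log scale, points are the 2 replicates and the dotted line is 1 TPM; Eda is number 3 among the ligands, and Edar and Eda2r, in bold, lie in the lower part of the receptor family.

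Genes that act with ectodysplasin were described as 5 lists, for processing, signalling, transcription factors, upstream regulators and reported targets. Of their 55 genes 49, or 89.1%, reached 1 TPM in both libraries, with a median of 11.8 TPM, beside 65.4% of all 21474 coding genes and a median of 6.13 TPM. Between replicates 3 of the 54 that could be compared differed by more than 1.5-fold, beside the 9.08% of all genes, and these were Pcsk1, Rel and Cxcl10. Nothing particular to the lists is read from these counts.

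Proteases of the furin type release the ligand from the membrane. Of 8 convertase genes 6 were detected, and the median of all was 5.83 TPM. Pcsk7 was highest at 14.9 ± 0.672 TPM, Pcsk5 had 14.7 ± 1.17 TPM and Furin 13.0 ± 0.573 TPM (SD, n = 2 each), each above Eda in both libraries. Pcsk1, which acts in endocrine cells, was below 1 TPM in both libraries, at 0.19 TPM in replicate 1 and 0.43 TPM in replicate 2.

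Downstream of the receptors, all 13 adaptor and kinase genes were detected, and their median level was 17.4 TPM. The IKK subunit genes Ikbkb and Chuk had 37.0 ± 1.04 TPM and 32.1 ± 0.530 TPM, and Tab1, a partner of TAK1, had 28.6 ± 1.29 TPM (SD, n = 2 each). Each of the 3 stood above Edaradd in both libraries. Of 11 genes for NF-kB subunits and their inhibitors 10 were detected, and the median of all was 11.6 TPM. They were led by the inhibitor gene Nfkbia, itself an NF-kB target, at 84.7 ± 4.27 TPM, the subunit gene Rela at 47.8 ± 1.35 TPM and the inhibitor gene Nfkbib at 35.7 ± 2.92 TPM. Rel, a subunit mainly of blood cells, was the only one not at 1 TPM in both, with 1.37 TPM in replicate 1 and 0.89 TPM in replicate 2.

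Of the 7 upstream regulators all were detected. Ctnnb1, the beta-catenin gene of the Wnt pathway, had 402 ± 16.7 TPM, the epidermal regulator Trp63 had 61.7 ± 4.55 TPM and Lef1, a partner of beta-catenin, had 41.1 ± 2.78 TPM (SD, n = 2 each). Of 16 reported targets in skin appendages 13 reached 1 TPM in both libraries. The BMP and Wnt inhibitor gene Sostdc1 had 182 ± 8.59 TPM, the cyclin gene Ccnd1 108 ± 6.37 TPM and the activin inhibitor gene Fst 30.3 ± 0.799 TPM. These 3 genes are also expressed outside placodes.

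Among the other targets, Bmp4 had 28.0 ± 1.46 TPM, Ccn2 17.4 ± 0.516 TPM and Icam1 16.3 ± 0.198 TPM (SD, n = 2 each). Lrp4 had 9.20 ± 0.615 TPM, Madcam1 5.56 ± 0.297 TPM and Sema3e 5.09 ± 0.212 TPM (SD, n = 2 each). Ltb, at 2.06 ± 0.354 TPM, and the next genes stood lower. These and the next genes were named after their values were seen. Shh had 1.82 TPM in replicate 1 and 2.41 TPM in replicate 2, Foxi3 1.69 and 1.58 TPM, Dkk4 1.01 and 1.10 TPM, and Fgf20 0.85 and 1.30 TPM. The chemokine gene Cxcl10 had 1.39 TPM in replicate 1 and 0.52 TPM in replicate 2, from 34 and 11 counts. Cxcl11 had no counts, which allows up to 0.0470 TPM in replicate 1 and 0.0451 TPM in replicate 2.

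**Figure D5:**
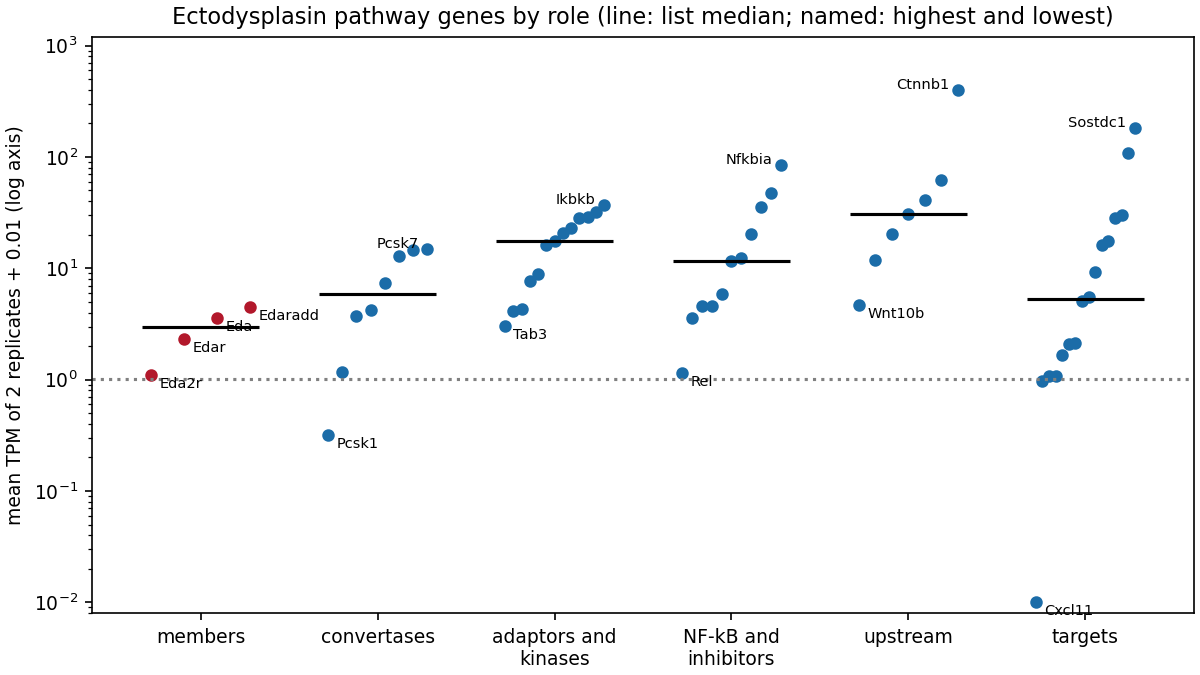
Mean level of the 4 ectodysplasin genes (red) and of the 5 pathway lists (blue), each gene a point. The vertical axis is mean TPM of both replicates + 0.01 on a log scale, horizontal lines are list medians and the dotted line marks 1 TPM; all 4 genes lie below the median of each list, the lowest of which is 5.32 TPM for the targets.

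Markers of several cell types were detected. This does not by itself identify the tissue, because 65.4% of all 21474 coding genes reached 1 TPM in both libraries. All 8 epithelial markers were detected, with Krt14 at 946 ± 83.6 TPM, as were all 8 markers of facial mesenchyme, with Msx1 at 152 ± 9.16 TPM (SD, n = 2 each). Of 8 hair placode markers, a list that includes Edar, 7 reached 1 TPM in both libraries, and of 5 tooth epithelium markers 4 did, with the enamel gene Amelx at 0.06 TPM in each. Between the replicates, epithelial and facial mesenchyme markers each had a median log2 ratio of -0.08. Muscle, bone, nerve and blood markers were detected as well, so the levels of the 4 genes are averages over a mixed tissue. Replicate 1 held 37128010 expected counts in total and replicate 2 held 38543623, and spike-ins took 2.91% and 4.59% of them. Spike-ins and numbered sequences held 6.42% of TPM in replicate 1 and 10.1% in replicate 2, which lowers the deposited TPM of every mouse gene.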

How the data were processed

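Both tables of each library, per gene and per transcript, were deposited by the authors and belong to 1 sample each. Reads had been assigned to the mm10 transcriptome with annotation M4, per the text deposited beside each sample. No aligner, quantification program, version or use of strand is given in the sources used here. The columns the authors deposited, per the file headers, hold for each feature an expected count, its TPM and its FPKM, a posterior mean TPM and, for transcripts, a percent of the gene's TPM. Deposited credibility bounds of TPM were recorded as a score because they sum to no fixed total. The authors' values were deposited per library, with no scaling between libraries that the headers record.

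Genes and transcripts were matched by identifier to GENCODE M21 (GRCm38). All 4 genes matched, 1 at the same version, and of 18 transcripts 17 had the same length. Expected counts were rounded to whole numbers, scaled by TMM (factors 0.989 and 1.01) in edgeR 4.0.16 with R 4.3.3, and compared as log2 ratios with a prior count of 2 where both libraries had at least 10 counts. A gene past 1.5-fold counts as differing. DESeq2 1.42.0 gave alternative size factors. Intervals are exact Poisson or conditional binomial at 95% and cover counting error only. For genes with no counts, the upper limit given is instead the TPM that 3 counts would have. With 1 group of 2 libraries there was no test and no p-value is given. Other steps used Python 3.11.15.

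The 4 genes, the lists and the alternatives were chosen with earlier results of these data known. Named were every member and transcript, the 3 list genes of highest mean TPM, list genes under 1 TPM in both libraries where 5 or fewer, and the neighbours of the members in the TNF families. No genes were named as most alike in pattern, since 2 replicates of 1 group hold no pattern across conditions. Spike-ins and numbered sequences were left out of the ratios.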

Additional observations from a re-analysis of the deposited data

How the results depend on the processing

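No paired analysis was possible because the labels give 1 group and no second group to pair with. Over mouse genes only, mean TPM was 3.88 for Eda, 4.91 for Edaradd, 2.52 for Edar and 1.19 for Eda2r. This scale and FPKM each differ from TPM by 1 factor per library, so they could not change the order of the 4 genes. Posterior mean TPM could have changed the order and did not, with 4.04 TPM for Eda and 1.28 TPM for Eda2r. From posterior mean TPM the A1 forms took 42.6% of Eda, retained introns 47.3% of Eda2r, Eda-206 34.2%, and Eda-205 17.2%. The ratio of Edar over Eda2r was 1.78 on posterior means and 3.67 with annotated coding Eda2r transcripts only, an alternative added after seeing the data. Eda over Edar was 1.78 on posterior means and 2.08 on counts not divided by length. Edaradd over Eda, also added after seeing the data, was 1.09 and 2.12 on those scales. Scaling by spike-ins moved the median log2 ratio of all genes to 0.65 and those of Eda, Edaradd, Edar and Eda2r to 0.66, 0.82, 0.61 and 0.96, with 12008 genes past 1.5-fold. Spike-in scaling moves every gene by about the same amount, set by the spike-in shares of 2.91% in replicate 1 and 4.59% in replicate 2. That the 4 ratios stayed close to TMM scaling relative to that shift is therefore fixed by construction. Why the spike-in shares differed was not tested. With no filter on low counts 6418 of 26690 genes were past 1.5-fold. The cause of the other moves was not tested. Leaving out 1 replicate at a time gave 3.52 to 3.60 TPM for Eda, 1.03 to 1.15 for Eda2r and 60.6 to 71.4% for the A1 forms. With 2 replicates these values lie within the spread by construction. Of 50 other values of genes, forms, ratios and counts under another setting, 20 moved. Levels, shares and ratios between genes counted as moved when they shifted by more than the spread between replicates. Counts had to change by more than 1.5 times. Log2 ratios between replicates have no such spread, so they counted as moved when they left their counting interval. That interval covers counting error alone and is too narrow. Of 16 transcript shares taken from posterior means 12 moved. Few reads fall on the bases that differ between Eda transcripts, which limits the precision of its split; depth was not varied.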
